A study of Arabidopsis thaliana with 22 samples.

Results

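Transcripts of 5 genes for proteins that act on the cell wall were followed across 22 ATH1 microarrays of whole Arabidopsis thaliana seedlings. The genes were EXPA9 (AT5G02260), XTH33 (AT1G10550), PME61 (AT3G59010), ATPMEPCRD (AT2G43050) and GH9B8 (AT2G32990). They were found by the gene symbol of the array annotation, which gave 1 probe set for each, 5 of the 22746 probe sets left after 64 controls were removed. They had been picked because their levels were high in darkness and fell in red-grown wild type. Their values in wild type are therefore given below as a description, without a test, and the rule set no numeric threshold. All 5 had a mean log2 intensity of at least 5 over the 22 arrays, so none was lost to a filter on dim probe sets.

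All seedlings had the Landsberg erecta (Ler) background and were 4 days old. Wild type was compared with the quintuple mutant phyABCDE, which lacks phytochromes A to E, and with the quadruple mutant phyABDE, in which phytochrome C is the remaining phytochrome. The mutant alleles are not given in the sources used here. Seeds were kept in the cold and dark for 4 days at 4 °C and received 3 h of white light before growth, in every group. Growth then lasted 4 days, either in the dark or in uninterrupted red light of 50 µmol per square metre and second (R50); a further set got 2 h of that red light at the end of dark growth (DR2h). Each mutant had 3 dark, 3 R50 and 2 DR2h arrays, and wild type had 4 dark and 2 R50 arrays, each array holding 1 sample that the labels call a biological replicate. The series text gives the One-cycle labelling kit for 5 arrays of wild type, namely dark replicates 2, 3 and 4 and R50 replicates 1 and 2, and the 3' IVT Express kit for 17, whereas the sample labels name the latter for all 22. The series text was followed.

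The growing plant cell is held in by a wall of cellulose microfibrils, xyloglucan and pectin, and it expands when that network yields to turgor. Expansins let the network creep without cutting it, xyloglucan endotransglucosylases cut and rejoin xyloglucan chains, pectin methylesterases strip methyl groups from pectin, and endoglucanases cut glucan chains. A seedling in darkness is etiolated: its hypocotyl elongates fast and its cotyledons stay closed. Phytochromes, the red and far-red light receptors, end this state in red light.

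Values are log2 of the deposited array intensity, and means are given with the SD. A value of 1 probe set is compared only with the same probe set on other arrays, because probe sets differ in brightness for the same amount of RNA. In whole seedlings, fewer cells of a type and less RNA per cell cannot be told apart. Array medians lay between 5.33 and 5.49 on the log2 scale, and the lowest correlation of 2 arrays from the same group, taken over probe sets (no independent units), was 0.978. The phytochrome transcripts, which would check the genotypes, were not analysed here.

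The expansin gene EXPA9 had log2 levels of 9.39, 9.66, 9.40 and 10.07 in the 4 dark wild-type arrays and 7.95 and 7.53 in the 2 R50 arrays. In phyABCDE it stood at 9.69, 9.58 and 10.13 in darkness and at 10.07, 9.86 and 10.24 under R50. In phyABDE it stood at 9.41, 9.82 and 9.47 in darkness and at 9.88, 9.69 and 9.54 under R50. Only the R50 arrays of wild type were low, and every mutant array, lit or dark, lay above them by more than 1 log2 unit. After 2 h of red light EXPA9 read 9.93 and 9.83 in phyABCDE and 9.81 and 9.47 in phyABDE. These lie within the dark range of the same mutant. In wild type the fitted difference between R50 and dark was -1.97 ± 0.20 (SE), a 3.91-fold lower level.

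XTH33, a xyloglucan endotransglucosylase gene, was measured at 7.91, 7.29, 7.25 and 7.91 in dark wild type and at 5.30 and 5.18 under R50. Dark phyABCDE gave 7.47, 7.18 and 7.19, and R50 gave 7.37, 7.16 and 7.68. Dark phyABDE gave 7.39, 7.43 and 7.45, and R50 gave 7.13, 7.09 and 7.04. The R50 arrays overlapped with the dark ones in phyABCDE but lay below all 3 dark arrays in phyABDE, where replicates were close together (SD 0.03 in darkness and 0.05 under R50). The DR2h arrays read 7.18 and 7.39 in phyABCDE and 7.63 and 7.72 in phyABDE, the latter above all dark arrays of that mutant. In wild type the difference between R50 and dark was -2.24 ± 0.17 (SE), a 4.73-fold lower level.

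PME61, also named PME35, encodes a pectin methylesterase and was the most variable of the 5 between replicates, with a pooled within-group SD of 0.52. Dark wild type gave 6.88, 7.21, 7.02 and 5.57, and R50 gave 3.48 and 3.79. Dark phyABCDE gave 6.51, 5.52 and 5.92, and R50 gave 5.94, 5.48 and 6.01. Dark phyABDE gave 6.17, 5.54 and 5.45, and R50 gave 5.69, 4.40 and 4.92. Wild-type replicate 4 was the low array of its group, yet it remained above both R50 arrays. In both mutants the R50 and dark arrays overlapped, and the DR2h arrays (5.83 and 6.57 in phyABCDE, 5.70 and 5.62 in phyABDE) lay among or slightly above the dark ones. In wild type the difference between R50 and dark was -2.96 ± 0.42 (SE), a 7.80-fold lower level, and it was -3.48 without dark replicate 4.

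ATPMEPCRD, the other pectin methylesterase gene, read 11.02, 11.27, 11.21 and 11.18 in dark wild type and 8.08 and 8.77 under R50. Dark phyABCDE gave 10.98, 10.78 and 10.89, and R50 gave 10.84, 10.32 and 11.08. Dark phyABDE gave 10.82, 10.81 and 11.03, and R50 gave 10.46, 10.01 and 10.14. As for XTH33, the R50 arrays of phyABDE all lay below its dark arrays, and those of phyABCDE did not. The DR2h arrays stood at 11.00 and 11.25 in phyABCDE and at 10.52 and 10.86 in phyABDE. In wild type the difference between R50 and dark was -2.80 ± 0.21 (SE), a 6.95-fold lower level, and it was -2.45 or -3.14 when R50 replicate 1 or 2 was left out.

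GH9B8, annotated as a glycosyl hydrolase of family 9, the family of plant endoglucanases, read 7.31, 7.35, 6.58 and 6.91 in dark wild type and 3.93 and 4.26 under R50. Dark phyABCDE gave 6.67, 6.54 and 6.72, and R50 gave 7.09, 6.50 and 6.93. Dark phyABDE gave 6.60, 6.18 and 6.69, and R50 gave 7.26, 6.59 and 6.83. The mutant arrays under R50 lay within or above the dark range, with 1 array of phyABCDE slightly below it. The DR2h arrays read 6.85 and 6.96 in phyABCDE and 6.65 and 6.94 in phyABDE. In wild type the difference between R50 and dark was -2.86 ± 0.23 (SE), a 7.24-fold lower level.

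**Figure D1:**
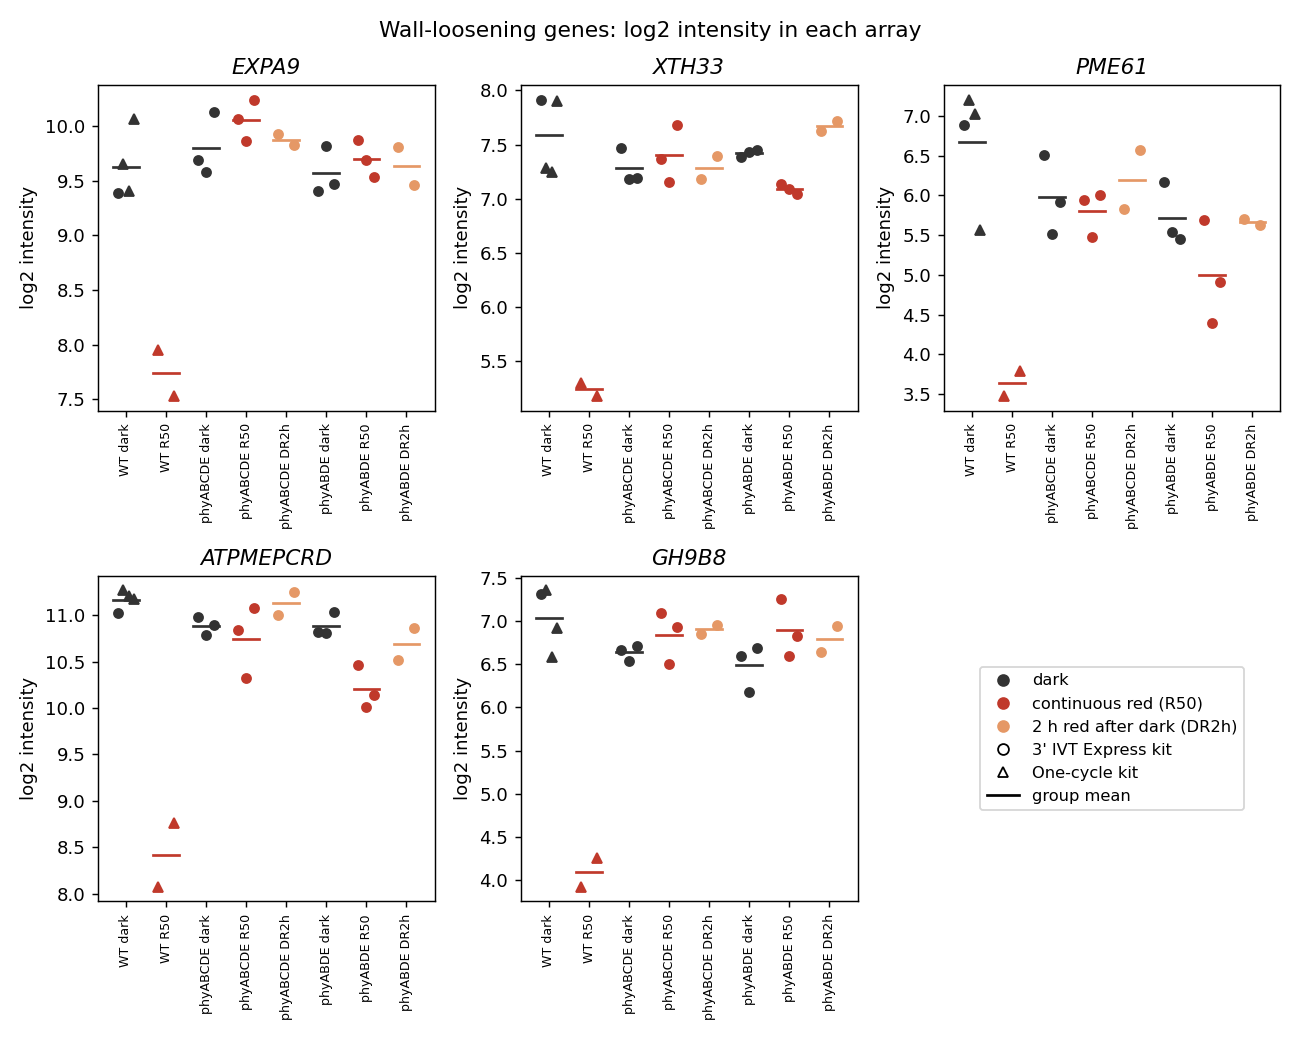
Log2 intensity of EXPA9, XTH33, PME61, ATPMEPCRD and GH9B8 in each of the 22 arrays, by group; circles are 3' IVT Express arrays, triangles are One-cycle arrays and bars are group means. In every panel the 2 R50 arrays of wild type lie below all other arrays, for EXPA9 at 7.95 and 7.53 against 9.39 or more elsewhere.

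Ordered by group mean, R50 wild type was the lowest of the 8 groups for each of the 5 genes, and its arrays were apart from those of the next group. The gap between these means was 1.83 for EXPA9, 1.85 for XTH33, 1.37 for PME61, 1.78 for ATPMEPCRD and 2.40 for GH9B8. The next group was dark phyABDE for EXPA9 and GH9B8 and R50 phyABDE for XTH33, PME61 and ATPMEPCRD. Above it, neighbouring groups overlapped in their arrays, with 2 exceptions. XTH33 in dark phyABCDE (7.28 ± 0.16, n = 3) was apart from R50 phyABDE (7.09 ± 0.05, n = 3). ATPMEPCRD in DR2h phyABDE (10.69 ± 0.24, n = 2) was apart from R50 phyABDE (10.20 ± 0.23, n = 3). The shares of all probe sets apart in these ways are not given here, so nothing is read from the order. R50 wild type is also the group in which the rule sought low levels. Its arrays are One-cycle arrays, and all mutant arrays are 3' IVT Express arrays.

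The wild-type fall was shallower for the expansin gene and XTH33 than for the pectin and glucan genes, which is a description of genes picked for their fall. Its size also depends on the scale for the dim probe sets. On log2 of the intensity plus 16 the difference was -1.86 for XTH33, -2.01 for PME61 and -2.08 for GH9B8. The R50 means of PME61 and GH9B8 were 12.4 and 17.1 intensity units, and the array medians lay between 40.2 and 44.9. In this contrast 27.5% of all probe sets were called at an adjusted p under 0.05 (limma, Benjamini-Hochberg), 13.8% lower and 13.7% higher. These shares stand beside the members' values as background and nothing is read from them, since the contrast chose the genes.

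Whether continuous red light changed these genes in seedlings without any phytochrome was asked with R50 against dark in phyABCDE, a contrast that the choice of genes did not use. None of the 5 was called by limma at an adjusted p under 0.05, and 0 of 5 had an unadjusted p under 0.05. Over all probe sets 0.00879% were called (2, or 0 with dark and R50 replicates paired as a block) and 5.68% had an unadjusted p under 0.05. The log2 differences were 0.26 ± 0.18 (SE) for EXPA9, 0.12 ± 0.15 for XTH33, -0.17 ± 0.37 for PME61, -0.14 ± 0.18 for ATPMEPCRD and 0.20 ± 0.20 for GH9B8, with adjusted p from 0.94 to 0.99 (limma). The 95% intervals reach down to -0.12, -0.21, -0.95, -0.53 and -0.22 in the same order. Each of these bounds is nearer to 0 than the wild-type difference of its gene. That difference comes from the contrast that chose the genes and rests on One-cycle arrays, so nothing is concluded from this. Pairing the dark and R50 arrays by replicate number, EXPA9 was higher under R50 in 3 of 3 pairs, by 0.38, 0.28 and 0.12. The pairing is uncertain and the share of all probe sets with 3 of 3 pairs one way is not given here. Nothing is therefore read from these pairs.

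The same question was asked of phyABDE, where phytochrome C remains. Here 0 of 5 genes were called by limma (0.145% of all probe sets were), and 2 of 5, XTH33 and ATPMEPCRD, had an unadjusted p under 0.05, as did 11.6% of all probe sets. ATPMEPCRD differed by -0.69 ± 0.18 (SE), with an unadjusted p of 0.0015 and an adjusted p of 0.15 in limma. Its 3 pairs differed by -0.36, -0.80 and -0.90, and its 95% interval ran from -1.07 to -0.30. XTH33 differed by -0.33 ± 0.15, with an unadjusted p of 0.044 and an adjusted p of 0.42 in limma. Its 3 pairs differed by -0.25, -0.34 and -0.41. These are the 2 genes whose R50 arrays lay below all dark arrays, as did 7.8% of all probe sets.

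The other pectin methylesterase gene, PME61, differed by -0.72 ± 0.37, with pairs of -0.48, -1.14 and -0.53 and an adjusted p of 0.47 (limma). Its 95% interval, from -1.50 to 0.06, includes 0, and without R50 replicate 2, the lowest array, the difference was -0.42. EXPA9 differed by 0.14 ± 0.18 (adjusted p = 0.84, limma), with pairs of 0.47, -0.13 and 0.07. GH9B8 differed by 0.40 ± 0.20 (adjusted p = 0.46, limma) and was higher under R50 in 3 of 3 pairs, by 0.66, 0.41 and 0.14. Here too the share over all probe sets is not given, so nothing is read from the pairs of GH9B8. The 3 pairs of EXPA9 went in both directions.

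**Figure D2:**
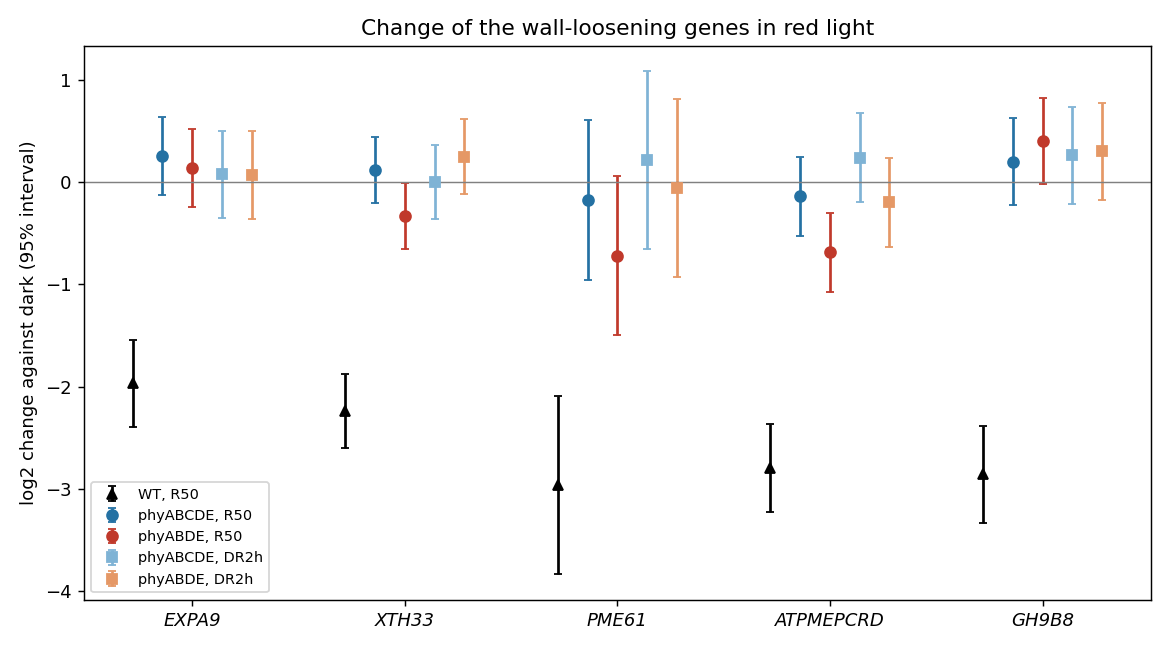
Log2 difference from dark for each gene in wild type (R50), phyABCDE and phyABDE (R50 and DR2h), with 95% intervals from the fit over all 22 arrays. Wild-type differences lie between -1.97 and -2.96 and are shown as a description; those of the mutants lie between -0.72 and 0.40.

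The difference between both mutants' responses to R50 was tested directly. It was -0.45 ± 0.22 for XTH33, -0.55 ± 0.53 for PME61, -0.55 ± 0.26 for ATPMEPCRD, -0.12 ± 0.26 for EXPA9 and 0.20 ± 0.29 for GH9B8, each as phyABDE minus phyABCDE. The adjusted p was 0.998 for each (limma), 0 of 5 genes had an unadjusted p under 0.05, and 0.0% of all probe sets were called in this contrast while 3.95% had an unadjusted p under 0.05. The intervals for XTH33 (-0.91 to 0.01) and ATPMEPCRD (-1.09 to 0.0004) only just include 0, so a different response to R50 in the 2 mutants was not shown for any gene of the set.

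Levels of both mutants were also compared within each light condition. In darkness phyABDE minus phyABCDE ranged from -0.26 for PME61 to 0.14 for XTH33. By limma 0 of 5 genes were called and 0 of 5 had an unadjusted p under 0.05, against 2.33% and 13.2% of all probe sets. Under R50 the difference was -0.55 ± 0.18 for ATPMEPCRD (unadjusted p = 0.0082, adjusted p = 0.11, limma) and -0.81 ± 0.37 for PME61 (unadjusted p = 0.043, adjusted p = 0.25, limma). The R50 arrays of both mutants overlapped for these 2 pectin methylesterase genes.

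EXPA9 differed by -0.36 ± 0.18 and XTH33 by -0.31 ± 0.15 under R50, and GH9B8 by 0.05 ± 0.20. XTH33 arrays of phyABDE lay below all those of phyABCDE, as 11.0% of all probe sets did. None of the 5 was called by limma, against 3.97% of all probe sets, and 2 of 5 had an unadjusted p under 0.05, against 18.4%. Without R50 replicate 2 of phyABCDE, its lowest array for ATPMEPCRD at 10.32, the ATPMEPCRD difference was -0.76 with an adjusted p of 0.031 (limma) and was called.

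A short exposure was examined with DR2h against dark. In phyABCDE differences ranged from 0.01 ± 0.17 for XTH33 to 0.26 ± 0.23 for GH9B8. In phyABDE they ranged from -0.20 ± 0.21 for ATPMEPCRD to 0.30 ± 0.23 for GH9B8. By limma 0 of 5 genes were called and 0 of 5 had an unadjusted p under 0.05 in either mutant. Of all probe sets 0.0176% were called and 6.21% had an unadjusted p under 0.05 in phyABCDE, and 0.0044% and 4.16% in phyABDE. Both DR2h arrays lay above all dark arrays for ATPMEPCRD and GH9B8 in phyABCDE, as for 11.1% of all probe sets, and for XTH33 in phyABDE, as for 10.3%. Wild type has no DR2h array in this series.

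At DR2h phyABDE minus phyABCDE was 0.39 ± 0.19 for XTH33 and -0.44 ± 0.23 for ATPMEPCRD, with adjusted p of 0.46 and 0.50 (limma). With 2 arrays against 2, EXPA9, PME61 and ATPMEPCRD of phyABDE lay below phyABCDE (22.4% of all probe sets did) and XTH33 lay above (24.4%). By limma 0 of 5 were called and 0 of 5 had an unadjusted p under 0.05, against 1.2% and 11.4% of all probe sets. The DR2h responses of both mutants were not shown to differ either: 0 of 5 genes were called and 0 of 5 had an unadjusted p under 0.05 (limma), against 0.0% and 3.18% of all probe sets.

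The comparison of wild type with the mutants contains the contrast that chose the genes and is described only. The wild-type response to R50 minus that of phyABCDE was -2.22 ± 0.27 for EXPA9, -2.36 ± 0.23 for XTH33, -2.79 ± 0.56 for PME61, -2.66 ± 0.28 for ATPMEPCRD and -3.06 ± 0.30 for GH9B8. Against phyABDE it was -2.10 ± 0.27, -1.91 ± 0.23, -2.25 ± 0.56, -2.11 ± 0.28 and -3.26 ± 0.30 in the same order. Both share the wild-type arrays. The wild-type response rests on the One-cycle arrays and the mutant responses on 3' IVT Express arrays, so an effect of the kit on the size of a response and an effect of genotype cannot be told apart.

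In darkness the mutants meet wild type on the same kit only through wild-type replicate 1. Relative to it, phyABCDE stood at 0.41 ± 0.26 for EXPA9, -0.63 ± 0.22 for XTH33, -0.90 ± 0.53 for PME61, -0.14 ± 0.26 for ATPMEPCRD and -0.67 ± 0.29 for GH9B8. The XTH33, PME61 and GH9B8 levels of both mutants were thus below that array, with -0.49 ± 0.22, -1.16 ± 0.53 and -0.82 ± 0.29 in phyABDE. Among dark wild-type arrays the 3' IVT Express array minus the One-cycle mean was -0.32 for EXPA9, 0.43 for XTH33, 0.28 for PME61, -0.19 for ATPMEPCRD and 0.36 for GH9B8. The part of the kit in these dark differences was not tested.

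Levels of the members were compared with each other only as patterns over arrays. Over all 22 arrays Pearson's r between 2 members ranged from 0.61 (EXPA9 with PME61) to 0.90 (XTH33 with GH9B8), values which the low R50 wild-type arrays enter. Within the 16 mutant arrays r ranged from 0.02 (EXPA9 with XTH33) to 0.81 (PME61 with ATPMEPCRD). As deviations from group means over the same 16 arrays, r ranged from 0.07 (EXPA9 with GH9B8) to 0.81 (ATPMEPCRD with GH9B8, and with XTH33), and it was 0.60 for PME61 with ATPMEPCRD. The arrays share groups and kits, so these are descriptions, and the order of the pairs differed between both scales.

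Genes whose pattern was most like that of the set were taken as the highest Pearson r with the mean of the 5 standardised log2 values (z-scores) over the 22 arrays, among probe sets with 1 gene. They were TUB1, a beta-tubulin gene (0.97), AT4G32460 (0.97), DRT100 (0.97), AT5G48900 (0.97), WAG2, a protein kinase gene (0.96), and AT5G49800 (0.96). For single members the closest were AT4G36010 for EXPA9 (0.96), AT5G42860 for XTH33 (0.97), AT1G54320 for PME61 (0.92), TBL38 for ATPMEPCRD (0.94) and AT4G29270 for GH9B8 (0.95). TUB1 differed by -3.20 ± 0.17 between R50 and dark in wild type, by 0.02 ± 0.15 in phyABCDE and by -0.03 ± 0.15 in phyABDE. These genes were picked for their likeness over the same arrays, so no test is given.

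Other genes of the same families were drawn from the annotated symbols, with the 5 members left out. In R50 against dark wild type genes of 1 family went both ways. Of 18 other expansin genes 6 fell, 3 rose and 9 did not pass (limma, adjusted p under 0.05), with a median of -0.04 against -0.02 over all probe sets, of which 13.8% fell and 13.7% rose. Expansin-like genes were counted among the expansins. The expansin-like gene EXLA2 fell by 2.60 ± 0.23 on the log2 scale and the beta-expansin gene EXPB1 fell by 2.06 ± 0.21. EXLA3 fell by 1.09 ± 0.30, a call lost with only the compared arrays, with the replicate block or without R50 replicate 1. EXPA7 and EXPA18, expansins of root hair cells, rose by 1.45 ± 0.24 and 1.42 ± 0.31, from dim dark means of 3.79 and 4.17.

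Of 9 other XTH genes 2 rose and 1 fell, with a median of 0.02, where 13.7% of all probe sets rose and 13.8% fell. XTH19 fell by 1.72 ± 0.21, against XTH33 at -2.24. XTH32 rose by 0.77 ± 0.23, a call lost without dark replicate 3, without either R50 replicate, with only the compared arrays or with the replicate block, and EXGT-A3 rose by 0.68 ± 0.17, a call lost without R50 replicate 2. Of 3 other pectin methylesterase genes PMEPCRF rose, by 1.03 ± 0.19, and 0 fell, with a median of 0.69. PME61 and ATPMEPCRD lay on the other side of 0, but they were picked for their fall in this contrast, so nothing is read from that. The PMEPCRF call was lost with the replicate block.

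Of 14 other family 9 endoglucanase genes 5 fell and 1 rose, with a median of -0.14, against 13.8% and 13.7% of all probe sets. Of these 5, the GH9B7 call was lost with the replicate block, and the GH9B5 call with the block, on the plus 16 scale or without R50 replicate 2. GH9B13 fell by 2.73 ± 0.25 and GH9C2 by 2.11 ± 0.20, near the -2.86 of GH9B8, while GH9C1 rose by 1.73 ± 0.27 from a dim dark mean of 3.44. Of 5 genes for xyloglucan synthesis 2 fell, with a median of -0.22. CSLC04 fell by 2.20 ± 0.18 and CSLC5 fell by 0.84 ± 0.18, a call lost without the kit term; both belong to the family that makes the xyloglucan backbone. The 1 polygalacturonase gene with a named probe set, ADPG1, differed by -0.43 and was not called. Pectin methylesterase inhibitors and cellulose synthases had no probe set named here.

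**Figure D3:**
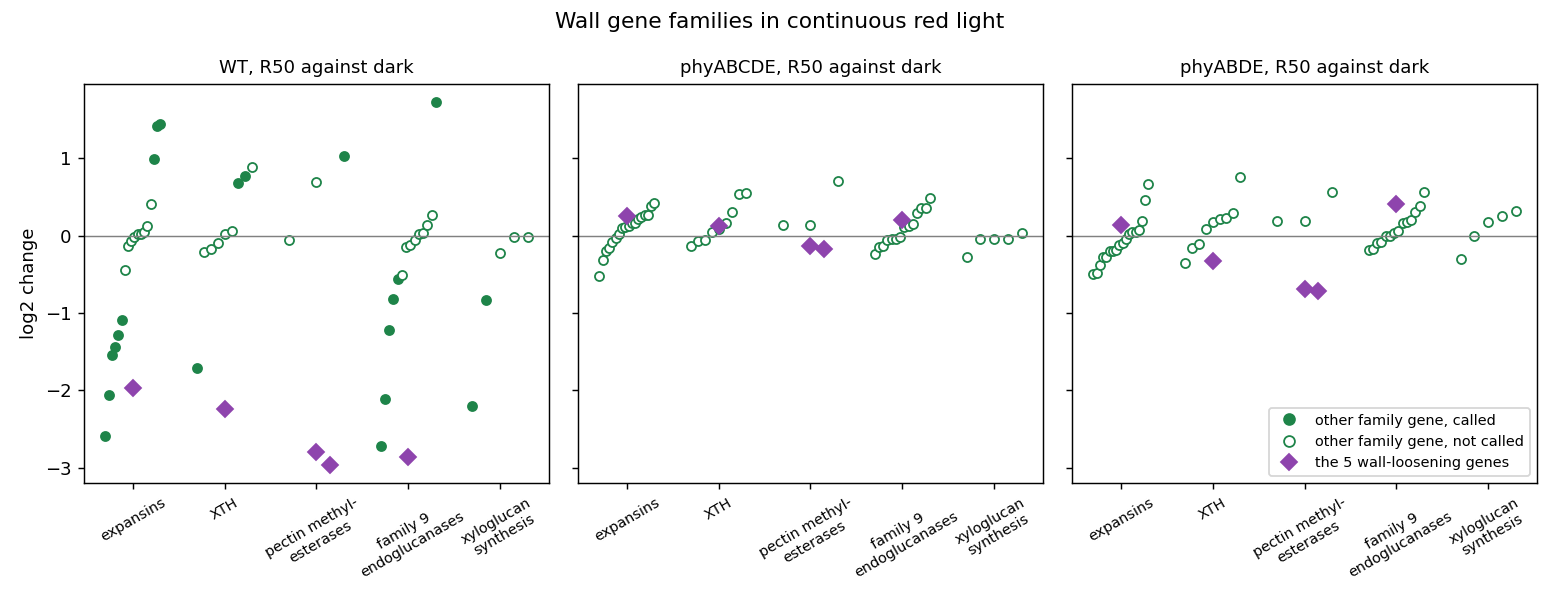
Log2 difference between R50 and dark for genes of each wall family in wild type, phyABCDE and phyABDE; purple diamonds are the 5 genes described, filled circles are other family genes called at an adjusted p under 0.05 (limma) and open circles those not called. Called genes appear in both directions in wild type, and in the mutants 0 family genes were called.

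In both mutants, after R50 and after DR2h, 0 of these family genes were called (limma), where the shares over all probe sets were 0.00879%, 0.145%, 0.0176% and 0.0044%. At R50, for instance, GH9B13 differed by 0.35 ± 0.23 in phyABCDE and by 0.30 ± 0.23 in phyABDE. The family genes were drawn from annotated symbols and not chosen by the difference in response, so it was tested for them. Their expansin, XTH, pectin methylesterase and endoglucanase families are those of the 5 members, which were chosen by their fall in red-grown wild type. That fall is part of this difference, and the lists were set with earlier results of these data known. The calls below are therefore not independent of the choice of members. Wild type minus phyABCDE called 3 expansin genes higher and 5 lower, 1 XTH gene lower, 1 pectin methylesterase gene higher, 1 endoglucanase gene higher and 6 lower, and 2 xyloglucan synthesis genes lower (limma), with a background of 8.27% higher and 8.9% lower (17.2% together). Against phyABDE the counts were 3 and 4 expansin genes, 1 and 1 XTH genes, 1 and 0 pectin methylesterase genes, 1 and 6 endoglucanase genes and 0 and 2 xyloglucan synthesis genes, with a background of 6.97% higher and 6.65% lower (13.6% together). Against either mutant 10 of these 19 calls were kept in every alternative in which the gene was tested. Against phyABCDE those of EXPA18, EXPA16, PMEPCRF, GH9B7, GH9B12 and CSLC5 were each lost in 6 or more. Against phyABDE the calls lost most often were those of EXPA8 (11 of 21), GH9B5 (10 of 20), PMEPCRF (9 of 21) and EXPA18 (7 of 20). EXLA3, EXPA8, EXPA16, GH9B5, GH9B7 and GH9B12 are named here after their values were seen.

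Of all probe sets 2.33% were called between the mutants in darkness, 3.97% under R50 and 1.2% at DR2h. Among the wall family genes only 1, the expansin-like gene EXLB1, was called, and it was called in every light condition. It was lower in phyABDE than in phyABCDE by 1.35 ± 0.24 in darkness (log2 change -1.35, adjusted p = 0.0037, limma), by 1.65 ± 0.24 under R50 (-1.65, adjusted p = 5.0e-04, limma) and by 1.61 ± 0.30 at DR2h (-1.61, adjusted p = 0.0079, limma). Its levels lay between 7.53 and 8.50 in the 8 arrays of phyABCDE and between 6.28 and 6.83 in those of phyABDE. In dark wild type EXLB1 read 7.63, 8.65, 8.38 and 7.66, of which only the first is a 3' IVT Express array. Under R50 wild type read 6.98 and 6.92. The cause of the difference between the mutants was not tested. The DR2h call was lost without replicate 2 of phyABCDE or without either replicate of phyABDE. EXPA9, by contrast, was not called between the mutants in any condition.

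Markers of other tissues and states were read beside these values. The mean log2 level of 9 seed maturation genes lay between 9.61 and 10.28 in phyABCDE and between 5.77 and 7.42 in wild type. In phyABDE it was 8.13, 9.69 and 9.11 in darkness, 7.43, 9.26 and 8.97 under R50 and 9.73 and 9.66 at DR2h. Single genes did not all follow this mean: in darkness 6 of 9 had a higher mean in both mutants than in wild type. AT2G44060 was at 10.15 in dark wild type against 9.86 in phyABCDE and 9.96 in phyABDE, and OLEO3, an oleosin gene, was at 9.35 against 9.17 in phyABDE. AT2G46140 was at 6.99 against 6.83 in phyABDE. In wild type 6 of 9 had a higher mean under R50 than in darkness, while OLEO3 was at 4.27 under R50. In phyABDE replicate 1 was the lowest array of the 9-gene mean in both the dark and the R50 group. Without these 2 arrays, an alternative added after seeing the data, ATPMEPCRD differed between R50 and dark in phyABDE by -0.85 and XTH33 by -0.37, and neither was called.

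The mean of 4 photosystem genes was 10.60 to 10.85 in dark and 12.25 and 12.34 in R50 wild type. It was 10.42 to 10.82 in dark and 10.84 to 11.22 in R50 phyABDE, and 10.19 to 10.42 in dark and 10.47 to 10.63 in R50 phyABCDE. The mean of the 2 root hair genes measured, which are EXPA7 and EXPA18 themselves, was 3.55 to 4.61 in dark and 5.23 and 5.44 in R50 wild type. A sign of RNA quality, the 3' minus 5' log2 signal of GAPDH, was 0.12 to 0.18 in dark phyABDE and 0.07, 0.52 and 0.53 in its R50 arrays. The latter 2 arrays had the lowest levels of that group for each of EXPA9, XTH33, PME61, ATPMEPCRD and GH9B8. The same measure for actin overlapped between both groups, at 3.13 to 3.35 in dark and 3.21 to 3.41 in R50 phyABDE. The part of these markers in the member values was not tested.

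**Figure D4:**
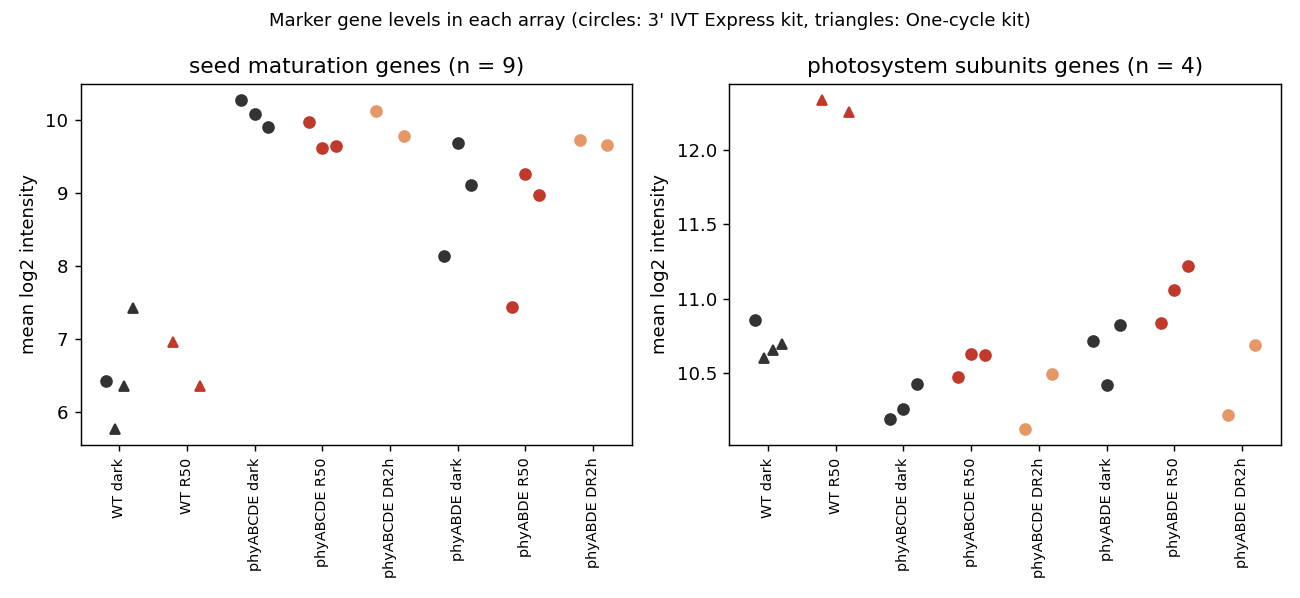
Mean log2 intensity of 9 seed maturation genes (left) and 4 photosystem genes (right) in each array, by group; circles are 3' IVT Express arrays and triangles are One-cycle arrays. The 9-gene mean is higher in the mutants (7.43 or more) than in wild type (7.42 or less), though 6 of 9 genes follow it in darkness, and the photosystem mean is highest in R50 wild type (12.25 and 12.34).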

How the data were processed

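Per the labels' protocols, total RNA of whole seedlings was hybridised to ATH1 arrays, 1 array per sample. The authors deposited linear intensity values, 1 per probe set and array. RMA, GCOS and limma are listed in the submitters' processing notes, with neither version nor role. No further normalization was applied. Log2 of the intensity was fitted with limma 3.58.1 (lmFit and eBayes, R 4.3.3) over 22 arrays, with 8 group means and a kit term (13 residual degrees of freedom), and adjusted by Benjamini-Hochberg over 22746 probe sets per comparison. The fit was tested on simulated data. Plots used matplotlib 3.10.9, and tables used numpy 2.4.6 and pandas 2.3.3 under Python 3.11.15. The table of GEO's platform annotation named 1 gene for 13513 probe sets, several for 503 and none here for 8730, and 13436 of the first matched RefSeq genes of TAIR10.1, used for names only. Precision is limited by the number of arrays.

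The members, the gene lists and the tests were chosen with earlier results of these data known. Named family genes are those called with the largest rises and falls, at most 2 each way per family and comparison, taking the probe set with the highest mean where a gene had more than 1. Pairing by replicate number was checked by correlating the deviations of arrays from their group means. Between dark and R50 it was 0.33, 0.12 and 0.25 in phyABCDE and 0.48, 0.18 and 0.11 in phyABDE, so numbers were taken as pairs there. Between dark and DR2h it ranged from -0.22 to 0.09 and in wild type from 0.08 to 0.15, and no pairs were assumed. The mutant values of 0.12 and 0.11 lie within the wild-type range, so the pairing of dark and R50 arrays remains uncertain. Alternatives were no kit term, an added 16, a mean log2 of at least 5, 1 annotated gene, quantile normalization, a trended robust prior, only the compared arrays, the replicate block and each replicate left out.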

Additional observations from a re-analysis of the deposited data

Results flagged for a closer look

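In dark wild type, 1 array stood far from the other 3 for 3 wall genes, by the gap to the nearest array over the whole range: 0.834 for XTH19 and 0.903 for XTH32, where replicate 3 was low at 9.14 and 6.87, and 0.952 for PMEPCRF, where replicate 2 was high at 7.22. Of 19 genes examined on these same 4 arrays 3 were far. Chance alone gives about 1 in 20 for independent sets, but these genes share their arrays, so nothing is read from the count. None of the 5 wall-loosening genes was among the 3 far ones. For PME61, however, replicate 4 was low at 5.57, against 6.88, 7.21 and 7.02 in the other dark wild-type arrays.

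For 2 of the 5 wall-loosening genes, EXPA9 and GH9B8, every R50 array of a mutant (phyABCDE and phyABDE, in this order) lay above the dark mean of that mutant. The R50 arrays of wild type lay below their dark mean, a side that follows from the choice of genes. The response of EXPA9 in wild type minus phyABCDE was -2.22, and that of GH9B8 in wild type minus phyABDE was -3.26. Both differences were not tested, because the wild-type contrast chose the genes. The changes within these mutants were small, at 0.26 for EXPA9 in phyABCDE and 0.40 for GH9B8 in phyABDE, and were not called. In the other mutant the dark and R50 arrays paired by replicate number differed both ways, with -0.13 for EXPA9 in phyABDE and -0.04 for GH9B8 in phyABCDE among the pairs.

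For other family genes the response to R50 differed between wild type and a mutant by limma's test of the difference. As wild type minus phyABCDE it was -2.76 for EXLA2, -1.90 for EXPB1, -1.30 for EXLB1, 1.98 for EXPA7 and 1.26 for EXPA18 among expansins. It was -2.26 for XTH19, 0.90 for PMEPCRF, -3.08 for GH9B13, -2.60 for GH9C2, 1.87 for GH9C1, -2.24 for CSLC04 and -0.79 for CSLC5. Not all of these calls held: that of EXPA18 was lost in 9 of 19 alternatives, of CSLC5 in 9 of 20 and of PMEPCRF in 6 of 20 (with the replicate block among them), each including the removal of either wild-type R50 replicate. The EXLB1 call was lost in 3 of 20, without phyABCDE dark replicate 2 or either wild-type R50 replicate. As wild type minus phyABDE it was -2.10 for EXLA2, -1.68 for EXPB1, 1.49 for EXPA7 and 1.40 for EXPA18. It was -2.01 for XTH19, 1.04 for EXGT-A3, 0.84 for PMEPCRF, -3.02 for GH9B13, -2.49 for GH9C2, 1.82 for GH9C1, -1.89 for CSLC04 and -1.09 for CSLC5. Here the EXPA18 call was lost in 7 of 20 alternatives (wild-type R50 replicate 2 among the arrays left out), the PMEPCRF call in 9 of 21, including the replicate block, and the CSLC5 call without the kit term. Kit and genotype cannot be told apart in the size of these differences.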

How the results depend on the processing

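Over 45 tested values of the 5 genes, 690 alternatives left 689 calls as they were and 1 was gained, that of ATPMEPCRD under R50 between the mutants without phyABCDE replicate 2. Members called there numbered 0 to 1 with a replicate left out. Of 275 alternatives of described values 18 moved by 1 SD or more and 0 reversed. The replicate block brought 0 tested member values below 0.05 and changed no member call. ATPMEPCRD in phyABDE (R50 against dark) ranged from -0.85 to -0.59 with adjusted p from 0.099 to 0.386 (limma). Few arrays limit small changes, and dim levels such as those of PME61 and GH9B8 in R50 wild type depend on the added constant. The causes of the changes below were not tested. A restriction to fewer probe sets leaves fewer that can be called and also changes the adjustment, and counts went both ways.

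Probe sets called in phyABCDE R50 against dark numbered 2, with 0 on the plus 16 scale, 1 with 1 annotated gene, 0 with only the compared arrays, 0 with the replicate block and 0 to 1 with a replicate left out. In phyABDE they numbered 33, with 21 without a kit term, 52 with a mean log2 of at least 5, 7 with 1 gene, 59 with the trended robust prior, 13 with only the compared arrays and 4 to 46 with a replicate left out. For DR2h in phyABCDE they numbered 4, with 1 for 1 gene, 1 for only the compared arrays, 26 with the block and 1 to 5 with a replicate left out. For DR2h in phyABDE they numbered 1, with 0 at a mean of 5, 2 for 1 gene, 4 with the trended prior, 0 for the compared arrays, 2 without both phyABDE replicate 1 arrays and 0 to 3 with a replicate left out.

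Between the mutants in darkness 529 were called, with 287 for 1 gene, 306 for the compared arrays, 270 without both phyABDE replicate 1 arrays and 245 to 630 with a replicate left out. Under R50 the numbers were 903, 494 for 1 gene and 375 to 812 with a replicate left out, and at DR2h 274, 143 and 77 to 118. The DR2h responses differed for 0 to 1 probe sets with a replicate left out. Wild type called 6245, with 3180 for 1 gene and 3797 with the block. Wild type minus phyABCDE called 3906 and 1923 for 1 gene, and minus phyABDE 3097 and 1543.

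In wild type a mean log2 of at least 5 left 0 expansin and 0 endoglucanase genes higher and 3 endoglucanase genes lower. Xyloglucan synthesis genes lower numbered 1 without the kit term, and XTH genes higher numbered 1 with only the compared arrays. With the block 0 pectin methylesterase genes were higher and 1 polygalacturonase gene was lower. With a replicate left out, 0 to 3 XTH genes were higher and 1 to 2 lower, 1 to 2 pectin methylesterase and 1 to 2 endoglucanase genes were higher, and 0 to 1 polygalacturonase genes were lower.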
